A study of Rattus norvegicus with 8 samples.

Results

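Transcripts of 10 genes of the unfolded protein response and the integrated stress response were followed in the injured cortex of rats after an experimental stroke. The genes were Atf4, Ddit3, Trib3, Asns, Ppp1r15a, Hspa5, Hyou1, Dnajb9, Xbp1 and Herpud1, and every probe whose deposited gene symbol is one of these names was taken. They are 10 of the 11012 gene symbols of the array and hold 12 of its 23609 probes, 3 for Hyou1 and 1 for each other gene. The 4 tMCAO animals were Sprague Dawley rats sampled 24 h after transient middle cerebral artery occlusion, in which an artery that feeds the cortex is blocked and then reopened. The 4 sham animals were Sprague Dawley rats that had a control operation. The RNA of each animal came from the ipsilateral cortex of a section 4 mm thick, so the tissue held all of its cell types together; age and sex are not given in the sources used here. In such bulk RNA, fewer cells of a type and less RNA per cell cannot be told apart. On each array 1 animal was labelled with Cy5 and hybridised beside pooled RNA of sham cortex labelled with Cy3, and the dyes were never swapped. The measure used below is log2(Cy5/Cy3), where 0 is the level of the pool.

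Between 23434 and 23565 probes had a value on an array, and the median Cy5 signal was 0.22 to 0.23 on every array, in the authors' own linear units. The SD of the log2 ratios over all probes was 0.74, 0.69, 0.62 and 0.37 on tMCAO arrays 1 to 4, against 0.23 to 0.26 in sham animals. Results without tMCAO replicate 4 are therefore also given for some genes, though not for every gene that it moves. Probes with 8 values numbered 23376, and 11 of the 12 member probes were among them. The twelfth, the Hyou1 probe g3222930, had no value on tMCAO replicate 4.

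Proteins that fold badly in the endoplasmic reticulum (ER) are sensed by PERK, IRE1 and ATF6 in its membrane. PERK, like the kinases that sense amino acid loss, viral RNA and haem loss, phosphorylates the translation factor eIF2, which lowers protein synthesis while raising the translation of ATF4. ATF4 switches on genes of amino acid supply and, with it, the transcription factor CHOP, the product of Ddit3. IRE1 splices the Xbp1 transcript, and XBP1 and cleaved ATF6 raise ER chaperones and the machinery that takes misfolded proteins out of the ER for degradation. Loss of blood flow is known to start both responses in brain tissue, and ATF4 and XBP1 are controlled largely by translation and splicing, which a transcript level does not show.

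The DNA elements through which these factors act are shown here because they set the members apart in a way that the array values do not use. RefSeq promoter windows of the GRCr8 rat assembly, each from 250 bases before to 50 bases after a transcription start, were available for all 10 genes, with 2 windows for Hyou1. Of 33469 windows, 0.0657% held the letters of the ER stress element ERSE (CCAAT and CCACG with 9 free bases between them, bound by ATF6 with NF-Y), and 0.0508% held those of ERSE-II (ATTGG and CCACG with 1 free base between them). The UPRE core (TGACGTGG, a site of ATF6 and XBP1) was in 0.595% of windows and the composite core bound by ATF4 with C/EBP partners (TGATGNAA) in 3.98%. Both strands were searched. Hspa5 and Xbp1 held an ERSE, Herpud1 held an ERSE-II, and Trib3 and Herpud1 an ATF4 composite core. Hyou1 held, in 1 of its 2 windows, 2 matches to ERSE-II and a UPRE core that overlaps the first of them. The stretches follow, each read along the sense strand of its gene, with the matching letters in capitals and 12 flanking bases on each side. They lie at chr3:38452961-38453003 (plus strand) for Hspa5, chr14:84604546-84604588 (plus) for Xbp1, chr19:10614809-10614903 (minus) for Herpud1, chr8:53602679-53602816 (plus) for Hyou1 and chr3:161275535-161275566 (minus) for Trib3.
Hspa5: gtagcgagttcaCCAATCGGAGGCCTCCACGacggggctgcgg
Xbp1: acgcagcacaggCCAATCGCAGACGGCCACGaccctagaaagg
Herpud1: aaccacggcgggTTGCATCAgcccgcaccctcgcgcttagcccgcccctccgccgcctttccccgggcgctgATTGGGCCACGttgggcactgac
Hyou1: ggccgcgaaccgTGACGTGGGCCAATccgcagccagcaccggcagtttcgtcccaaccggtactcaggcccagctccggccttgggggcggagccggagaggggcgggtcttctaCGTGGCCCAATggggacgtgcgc
Trib3: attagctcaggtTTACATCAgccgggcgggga
The start that the table gives for Herpud1 lies inside the RefSeq gene interval. A match is a run of letters and not a known site, and no match says only that these letters are not in the window. Of the 5 genes with a match, Trib3 and Hspa5 were higher after tMCAO by the test below; of the 5 without one, Ddit3, Atf4 and Dnajb9 were.

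**Figure D1:**
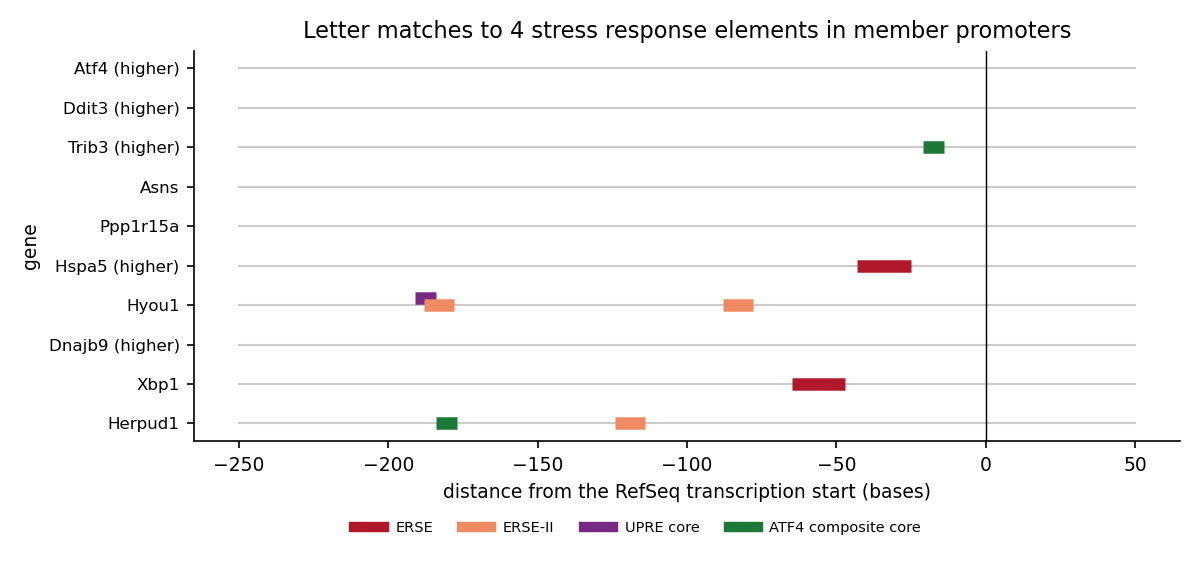
Distance in bases from the RefSeq transcription start (horizontal axis) of each letter match in the promoter windows of the 10 genes, coloured by element. Matches were found for 5 genes, and the genes marked as higher after tMCAO stand both among those and among the 5 genes without a match.

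The probes of Trib3, Ddit3, Hspa5, Dnajb9 and Atf4 rose after tMCAO, which is 5 of 11 tested, where 14.5% of all 23376 probes rose and 29.6% passed in either direction. On these 5 probes every tMCAO array lay above every sham array, an arrangement that 13.4% of all probes showed. No member probe fell by limma's test, and 0 had an unadjusted p under 0.05 in that direction, where 15.1% of all probes fell. The median log2 difference over the 11 probes was 0.19, beside -0.05 over all probes. With quantile normalization of the log ratios, which gives all arrays the same spread, 1 member probe (Dnajb9) passed. The plot of member probes by array shows each value.

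**Figure D2:**
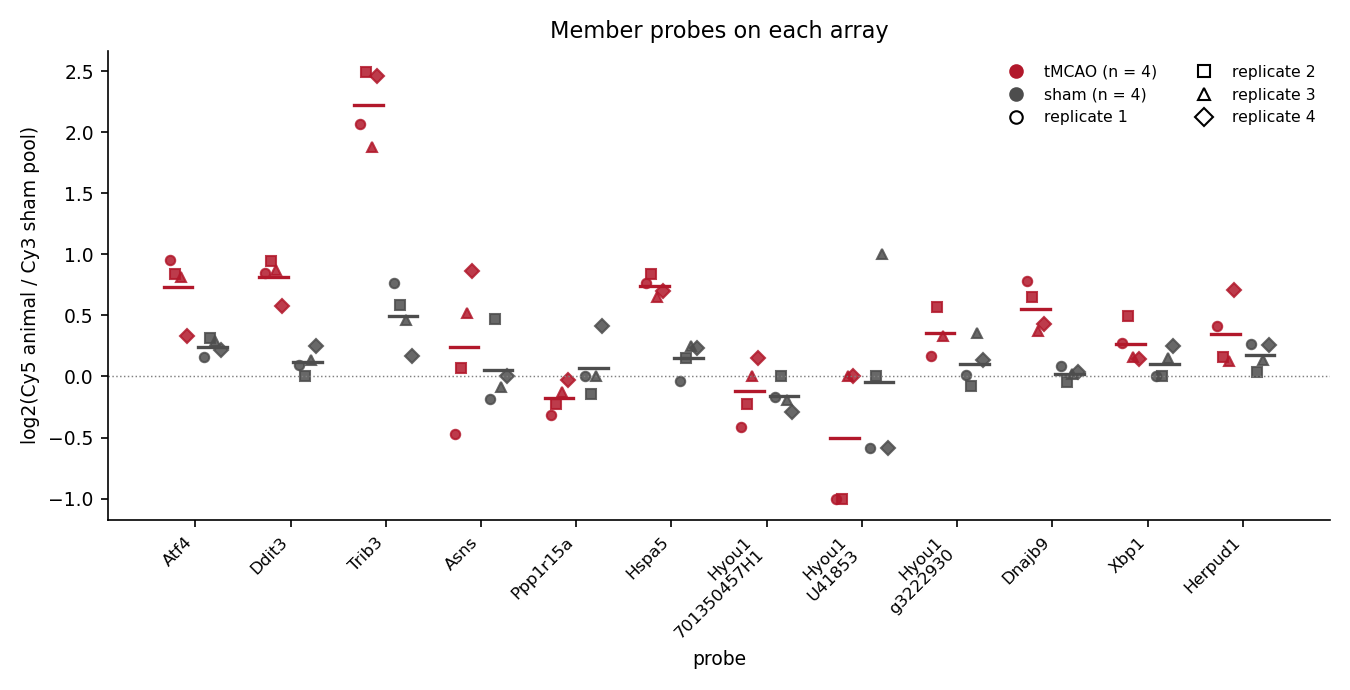
Log2 ratio of the animal to the sham pool (vertical axis) for the 12 member probes, with 1 point per array, tMCAO in red left of sham in grey, the replicate as the symbol and the group mean as a bar. Trib3 stands highest, at 1.87 to 2.49 on the tMCAO arrays against 0.17 to 0.77 on the sham arrays, and the points of both groups are intermixed for Asns, Ppp1r15a, Hyou1, Xbp1 and Herpud1.

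Atf4, the transcription factor that carries the integrated stress response, had log2 ratios of 0.95, 0.84, 0.82 and 0.33 on tMCAO replicates 1 to 4, against 0.16, 0.31, 0.29 and 0.22 on the sham arrays. Its Cy5 signal was 15.88, 15.03, 15.19 and 10.19 after tMCAO and 9, 8.77, 8.93 and 9.33 in sham cortex. The first 3 tMCAO animals stood well clear of the sham range, while the fourth lay just above its upper end. The difference was 0.49 ± 0.14 on the log2 scale (SE, n = 4 each), a 1.4-fold rise with an adjusted p of 0.0294. Without tMCAO replicate 4 it was 0.62, with an adjusted p of 0.000482. Leaving out any other single array ended the call, with adjusted p-values from 0.0578 to 0.0778.

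Ddit3 encodes CHOP, a transcription factor tied to cell death under lasting ER stress. Its log2 ratios were 0.85, 0.95, 0.87 and 0.58 on the tMCAO arrays, against 0.09, 0.01, 0.14 and 0.25 on the sham arrays. All tMCAO animals lay clear of the sham range, and replicate 4 was again the lowest of them. The rise was 0.69 ± 0.10 (SE, n = 4 each; 1.61-fold, adjusted p = 0.00429).

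Trib3, a pseudokinase induced by ATF4 and CHOP that restrains ATF4 activity, had the largest rise of the member probes. Its Cy5 signal was dim, at 0.42, 0.45, 0.33 and 0.55 after tMCAO, against 0.17, 0.12, 0.11 and 0.09 in sham cortex. The log2 ratios were 2.07, 2.49, 1.87 and 2.46 after tMCAO, against 0.77, 0.58, 0.46 and 0.17 in sham cortex. The lowest tMCAO animal was more than 1 log2 unit above the highest sham animal, and replicate 4 was as high as the others. The difference was 1.73 ± 0.18 (SE, n = 4 each; 3.32-fold, adjusted p = 0.0017). Because intensities of at least 0.01 are given to 2 decimals, rounding alone allows a fold of 2.80 to 3.93.

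Asns, the asparagine synthetase that ATF4 induces when amino acids are short, did not pass the test. Its log2 ratios were -0.47, 0.07, 0.52 and 0.86 on tMCAO replicates 1 to 4, against -0.18, 0.47, -0.08 and 0 on the sham arrays. The tMCAO animals were spread from below to above the whole sham range, with replicate 4 the highest. The difference was 0.19 ± 0.28 (SE; 95% interval -0.44 to 0.83; adjusted p = 0.624), and it was -0.01 without tMCAO replicate 4.

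Ppp1r15a encodes GADD34, the phosphatase subunit that takes the phosphate off eIF2 and so ends the response. Its probe was among the dimmest of the array, with a mean Cy5 signal at the 0.37 percentile of all probes. The log2 ratios were -0.31, -0.23, -0.13 and -0.03 after tMCAO, against 0, -0.15, 0 and 0.41 in sham cortex, and the groups overlapped. The difference was -0.24 ± 0.13 (SE; adjusted p = 0.189), and rounding alone allows values from -0.91 to 0.63, so no direction can be read from it.

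Hspa5 encodes BiP, the main chaperone of the ER lumen, which also holds the stress sensors inactive. Its Cy5 signal was 11.57, 11.31, 10.11 and 9.96 after tMCAO, against 5.27, 5.82, 5.83 and 6.68 in sham cortex. The log2 ratios were 0.76, 0.84, 0.65 and 0.70 after tMCAO, against -0.04, 0.15, 0.25 and 0.23 in sham cortex. The 4 tMCAO animals formed a narrow range, with replicate 4 inside it. The rise was 0.59 ± 0.09 (SE, n = 4 each; 1.51-fold, adjusted p = 0.00479).

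Dnajb9 encodes ERdj4, a partner of BiP that helps to send misfolded proteins to degradation and to keep IRE1 inactive. Its log2 ratios were 0.78, 0.65, 0.37 and 0.43 after tMCAO, against 0.08, -0.04, 0.02 and 0.03 in sham cortex. Its sham animals were the closest together of all member probes, with an SD of 0.05. The rise was 0.53 ± 0.11 (SE, n = 4 each; 1.45-fold, adjusted p = 0.00904).

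Hyou1 encodes a large ER chaperone that exchanges the nucleotide of BiP and is known for its induction by lack of oxygen. Its brightest probe, g3222930, had Cy5 signals of 19.26, 24.50 and 23.96 on tMCAO replicates 1 to 3, against 19.85, 21.15, 22.10 and 21.71 on the sham arrays. Its log2 ratios were 0.16, 0.57 and 0.33 after tMCAO, against 0.01, -0.08, 0.36 and 0.14 in sham cortex, so the groups overlapped. The difference over these 7 arrays, with tMCAO replicate 4 missing from the fit, was 0.25 with an adjusted p of 0.222. This probe was near the top of the scale. On tMCAO replicates 1 and 2 its Cy5 signal shared its value, within 0.05, with 55 and 42 probes (itself included). Its ratios on these arrays may therefore be lower bounds, though Cy5 signals up to 22.43 and 28.37 were read there. Whether the shared values are a ceiling was not tested. The other Hyou1 probes were dim. Probe 701350457H1 differed by 0.04 ± 0.13 (SE; adjusted p = 0.835) and probe U41853 by -0.46 ± 0.40 (SE; adjusted p = 0.409), and rounding alone allows either sign for both.

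Xbp1, the transcription factor spliced by IRE1, had log2 ratios of 0.28, 0.50, 0.16 and 0.14 after tMCAO, against 0, 0, 0.15 and 0.25 in sham cortex. Replicates 1 and 2 lay above the sham range and replicates 3 and 4 inside it. The difference was 0.17 ± 0.11 (SE; 95% interval -0.08 to 0.42; adjusted p = 0.26). The files do not say which part of the transcript the probe reads, so spliced and unspliced forms are not separated.

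Herpud1, an ER membrane protein of the degradation complex, had log2 ratios of 0.41, 0.16, 0.13 and 0.70 after tMCAO, against 0.26, 0.03, 0.14 and 0.25 in sham cortex. Replicate 4 had the highest value and replicates 2 and 3 were inside the sham range. The difference was 0.18 ± 0.14 (SE; 95% interval -0.14 to 0.49; adjusted p = 0.351), and 0.06 without tMCAO replicate 4. In the sequences printed above, Herpud1 has letters of the same ER stress element as Hyou1, and Xbp1 of the same as Hspa5.

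**Figure D3:**
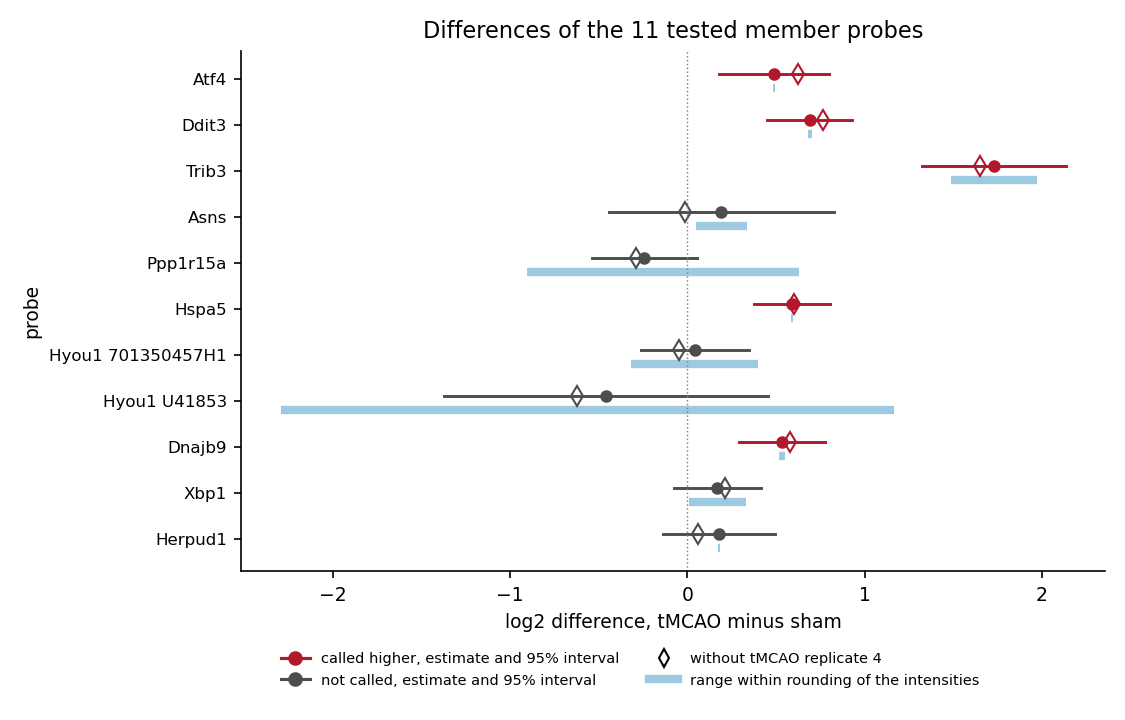
Log2 difference of tMCAO minus sham (horizontal axis) for the 11 tested member probes, with the 95% interval, the estimate without tMCAO replicate 4 as an open diamond and the range that rounding of the intensities allows as a pale bar. The intervals of Trib3, Ddit3, Hspa5, Dnajb9 and Atf4 lie above 0, and the rounding bar is widest for Hyou1 U41853, from -2.29 to 1.16.

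The 4 tMCAO animals did not differ from sham by the same amount in each gene. Over the 3380 probes that rose, the difference of tMCAO replicate 4 from the sham mean was a median of 49.8% of that of replicates 1 to 3 (quartiles 30.8% and 73.5%), and 385 probes (11.4%) reached at least 100%. Among the members that rose, Atf4 stood at 13.2%, Ddit3 at 59.4%, Dnajb9 at 70.0%, Hspa5 at 92.0% and Trib3 at 119%. Atf4 in that animal was thus close to sham cortex while Trib3 was at the level of the other tMCAO animals. Asns and Herpud1, which did not pass the test, had their highest values in the same animal. This is a description of 1 animal, and no test compares it with the rest. Without it the same 5 members rose, where 21% of all probes rose and 23.4% fell.

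**Figure D4:**
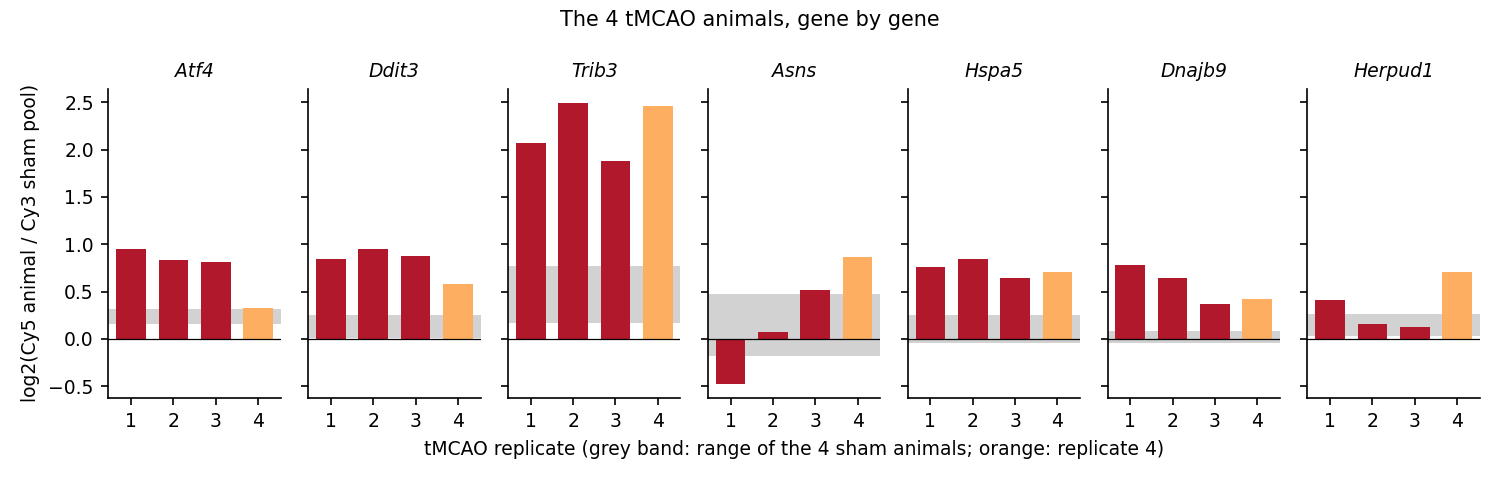
Log2 ratio to the sham pool (vertical axis) in each tMCAO animal for 7 members, with replicate 4 in orange and the range of the 4 sham animals as a grey band. Replicate 4 is lowest for Atf4, at 0.33, and highest for Asns, at 0.86, and for Herpud1, at 0.70.

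The authors' deposited table gives a p-value for each probe and array, for the animal against the pool on that array. At a p under 0.01, member probes numbered 5, 6 and 5 of 12 on tMCAO replicates 1 to 3 and 4 of 11 on replicate 4, against 1 of 12 on sham replicate 1 and 0 on the other sham arrays. In the authors' deposited table the share of all probes under that limit was 35.4%, 33.6%, 29.0% and 11.7% on the tMCAO arrays, against 1.88% to 2.73% on the sham arrays. Trib3 and Hspa5 passed it on all 4 tMCAO arrays, Ddit3 and Atf4 on 3, Dnajb9 and Asns on 2, and Xbp1 and Herpud1 on 1, in that deposited table. The 1 sham array with a member under the limit was that of Trib3, and the Herpud1 value was on tMCAO replicate 4 (p = 0.000367 in the authors' deposited table).

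The pool is the same kind of RNA on every array, so its signal was also compared between the groups. It was deposited after normalization and read beside a Cy5 channel that differed by group, and the cause of its differences was not tested. Of the 11 tested member probes, those of Ddit3 (1.27-fold, adjusted p = 0.00758), Asns (1.26-fold, adjusted p = 0.00825) and Hspa5 (1.21-fold, adjusted p = 0.00889) had more pool signal on the tMCAO arrays than on the sham arrays, where 26.5% of all probes did. The Cy5 values of these genes therefore differ by more than their ratios do, and the part of the pool signal in the ratios was not tested. The mean of the sham animals against the pool is the background measured in the same way. It called 0 of the 11 member probes by limma and 0.0556% of all probes. The 2 member probes at an unadjusted p under 0.05 were those of Trib3 and Atf4. Their sham means lay above the pool by 0.495 ± 0.125 (SE; adjusted p = 0.292) and 0.245 ± 0.097 (SE; adjusted p = 0.576).

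The other genes of the pathway were taken from 5 lists by role, which held 123 genes, 104 of them measured with 174 probes. A gene was counted as higher or lower when at least 1 of its probes passed the test, so genes with several probes had several chances. By that count 47 genes (45.2%) rose and 8 (7.69%) fell, 1 of them in both counts, and 50 did not pass. Of all 10881 symbols measured, 20.7% had a probe that rose and 19.9% a probe that fell. Quantile normalization gave 18 genes higher and 5 lower, and of the genes named below it ended the calls of Eif2ak2, Map3k5, Mthfd2, Sil1, Edem1, Sel1l, Sec24d, Sec23b, Sec61a1, Srp9 and the larger Atf6 probe. Leaving out single arrays gave 33 to 55 genes higher and 4 to 16 lower, with the upper end of both without tMCAO replicate 4.

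**Figure D5:**
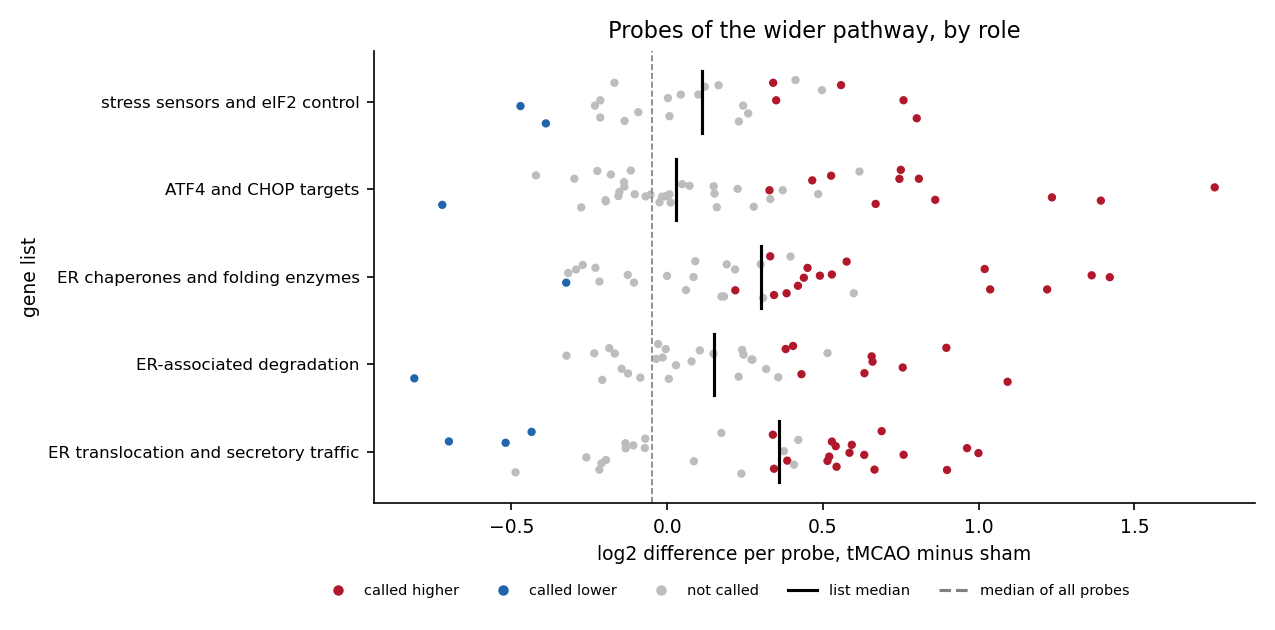
Log2 difference of tMCAO minus sham (horizontal axis) for the 174 probes of the 5 pathway lists, with probes that rose in red, probes that fell in blue, list medians as black bars and the median of all probes, -0.05, as a dashed line. The medians of the ER chaperones and of the translocation and traffic genes, 0.30 and 0.36, lie farthest to the right.

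Of 17 measured stress sensors and eIF2 factors, 4 rose and 2 fell, with a median log2 difference of 0.11 over their probes. The rises were near the share over all symbols, of which 20.7% had a probe that rose and 19.9% a probe that fell. Eif2ak2, the kinase PKR that senses double-stranded RNA, rose by 0.80 ± 0.15 (SE; adjusted p = 0.007), and Eif2s1, the eIF2 subunit that is phosphorylated, by 0.56 ± 0.09 (SE; adjusted p = 0.00449). Both Atf6 probes rose, by 0.76 (adjusted p = 0.0415) and 0.34 (adjusted p = 0.0263). The call of the larger one was lost in 7 of 8 fits that left out 1 array. Map3k5, the kinase ASK1 that acts downstream of IRE1, fell by 0.47 ± 0.10 (SE; adjusted p = 0.013) on 1 of 3 probes. The others differed by 0.04 and -0.09, and the average of the 3 did not pass (-0.17, adjusted p = 0.155). Chosen after their values were seen, the sensor genes Ern1, which encodes IRE1 (0.50, adjusted p = 0.0656), and Eif2ak3, which encodes PERK (-0.23 and 0.10, adjusted p = 0.0807 and 0.561), did not pass.

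Of 30 measured targets of ATF4 and CHOP, 11 rose and 1 fell, where 20.7% of all symbols rose and 19.9% fell by that count. The median log2 difference was 0.03, beside -0.05 over all probes. Nupr1, a small stress-induced nuclear protein, had log2 ratios of 1.78, 1.5, 1.95 and 0.96 after tMCAO, against -0.35, -0.12, -0.38 and 0 in sham cortex, a 3.38-fold rise (adjusted p = 0.00244). Eif4ebp1, a repressor of cap-dependent translation, rose 2.62-fold (adjusted p = 0.00191). The mitochondrial one-carbon enzymes Mthfd2 (2.35-fold, adjusted p = 0.000526) and Shmt2 (1.82-fold, adjusted p = 0.00161) rose on 1 of 2 probes each, and as far in replicate 4 as in the other tMCAO animals. On that probe Mthfd2 had log2 ratios of 1.69, 1.55, 1.58 and 1.61 after tMCAO, against 0.47, 0.37, 0.23 and 0.42 in sham cortex. The second probes differed by 0.15 for Mthfd2 (adjusted p = 0.316) and -0.01 for Shmt2 (adjusted p = 0.967). The 1 gene that fell, Jdp2, did so on a dim probe whose sign rounding can turn, while its other probe differed by 0.33. Atf3 (-0.02) and Chac1 (0.01), both targets of the ATF4 and CHOP axis and chosen after their values were seen, did not pass (adjusted p = 0.955 and 0.986).

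Of 21 measured ER chaperones and folding enzymes, 13 rose and 1 fell, with a median log2 difference of 0.30. Over all symbols 20.7% had a probe that rose and 19.9% a probe that fell. P4hb, a protein disulfide isomerase, had Cy5 signals of 21.08, 23.10, 19.80 and 10.63 after tMCAO, against 6.19, 5.43, 6.71 and 6.61 in sham cortex. Its replicate 4 was well below the other tMCAO animals and above all sham animals. The rise was 2.68-fold (adjusted p = 0.00599), and 3.22-fold without tMCAO replicate 4. Fkbp11, a prolyl isomerase of secretory cells (2.57-fold, adjusted p = 0.00347), Dnajc3, a BiP partner and inhibitor of eIF2 kinases (2.05-fold, adjusted p = 0.00762), and Creld2, an ER stress-induced disulfide isomerase (2.03-fold, adjusted p = 0.00434), rose too, Dnajc3 and Creld2 on 1 of 2 probes each. Their second probes differed by -0.23 (adjusted p = 0.0773) and 0.17 (adjusted p = 0.321), and averaging the probes gave log2 differences of 0.40 for Dnajc3 and 0.60 for Creld2. The Fkbp11 probe was dim, with a mean Cy5 signal of 0.10 after tMCAO and 0.05 in sham cortex. Rounding alone allows a fold of 1.79 to 3.75 for it. Sil1, another nucleotide exchange factor of BiP, fell by 0.32 (adjusted p = 0.0485), a call that was lost in 12 of 22 alternatives.

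Of 16 measured genes of ER-associated degradation, 6 rose, where 20.7% of all symbols had a probe that rose. The median log2 difference was 0.15. Edem1, a lectin that picks glycoproteins for degradation, rose 2.13-fold on its strongest probe (adjusted p = 0.0077), and 3 of its 5 probes passed. Vcp, the ATPase that pulls substrates out of the membrane (0.66, adjusted p = 0.00825), and Sel1l, a scaffold of the ubiquitin ligase complex (0.66, adjusted p = 0.00604), rose as well. For Sel1l this was 1 of 3 probes.

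Of 20 measured genes of ER translocation and secretory traffic, 13 rose and 3 fell, with a median of 0.36. The shares over all symbols were 20.7% with a probe that rose and 19.9% with a probe that fell. Sec24d (1.00, adjusted p = 0.00636) and Sec23b (0.96, adjusted p = 0.0101), parts of the coat of vesicles that leave the ER, and Sec61a1 (0.90, adjusted p = 0.00689), the channel through which new proteins enter it, rose, Sec24d on 1 of 2 probes. Ssr1, a partner of that channel, rose by 0.76 (adjusted p = 0.00519). Tmbim6, an ER membrane protein that binds IRE1, was in both counts: 1 of its 4 probes fell by 0.52 (adjusted p = 0.0135), while 1 rose by 0.59 (adjusted p = 0.0292). Srp9, of the signal recognition particle, fell by 0.70 (adjusted p = 0.0302) on 1 of 2 probes, a call that was lost in 12 of 21 alternatives.

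Marker transcripts of several cell types moved with the groups. Of 8 measured microglia and macrophage markers 7 rose, of 5 endothelial markers 4, of 6 fibroblast markers 5, and of 7 neuronal markers 6 fell. Over all symbols, 20.7% had a probe that rose and 19.9% a probe that fell. Summed Cy5 signals were 30.2 to 63.1 after tMCAO, against 19.1 to 19.4 in sham cortex, for microglia and macrophages. For endothelium they were 10.2 to 31.2 after tMCAO and 5.68 to 6.46 in sham cortex, and for fibroblasts 4.62 to 10.8 after tMCAO and 3.17 to 3.95 in sham cortex. Neuronal markers summed to 13.9 to 21.8 after tMCAO, against 26.6 to 29.2 in sham cortex. Gfap rose and 4 of the 6 measured astrocyte markers fell. No marker of oligodendrocytes passed, while 1 rose without tMCAO replicate 4. The B and plasma cell list, whose secretory cells hold much ER, had 1 of 5 genes higher (Sdc1) and 4 not called. Without tMCAO replicate 4, 1 gene was higher and 1 lower. The sum of the list was 3.35 to 15.4 after tMCAO against 1.21 to 1.62 in sham cortex, while the median log2 difference of its probes was -0.06. Neutrophil markers had 0 of 3 calls by limma, while 2 of the 3 rose without tMCAO replicate 4. The sum of the neutrophil list was 0.41 to 6 after tMCAO against 0.33 to 1.73 in sham cortex. Red blood cell markers had 0 of 2 calls, or 1 without tMCAO replicate 4. Their sum was 30.5 to 101 after tMCAO against 23.3 to 35.4 in sham cortex. In 8 of the 9 lists, all but the neurons, tMCAO replicate 4 had the lowest sum of the tMCAO animals. The part of these cells in the rises above was not tested.

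For each member that rose, the 3 probes of other genes whose log2 ratios lay closest over the 8 arrays were found by root mean square distance. Ddit3 was closest to Jrk (0.06), Zfp598 (0.09) and the Sel1l probe that rose (0.09), and Atf4 to Rps6ka3 (0.08), Tmem39a (0.09) and Traf3ip2 (0.09). Hspa5 was closest to Dcaf10 (0.08), Srr (0.10) and Nup93 (0.10), and Dnajb9 to Cd8b (0.06), Ssr1 (0.07) and Gabpa (0.07), where the Cd8b and Gabpa probes were dim, with a mean Cy5 signal of 0.05 and 0.06. Trib3 had no such close neighbour: Calcb was at 0.27, Hspb1 at 0.42 and S1pr3 at 0.44. Among the members themselves, Ddit3 and Hspa5 were 0.13 apart, Atf4 and Ddit3 0.16, Hspa5 and Dnajb9 0.21, and Trib3 lay at least 1.08 from each of the others. The ratios were not scaled for this distance, so it also reflects the size of the rise, which was largest for Trib3 among the members.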

How the data were processed

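Members and gene lists were chosen with earlier results of these data known. Per the labels, total RNA (DNase for 30 minutes) was amplified in 2 rounds from 100 ng and hybridised to dual-colour arrays, and Agilent Feature Extraction 8.5.1.1 is listed in the submitters' processing notes. The authors deposited a normalized intensity per channel, rounded to 2 decimals where it is at least 0.01, and a p-value per array. Their series values were log10 of Cy5 over Cy3, as the deposited values match that within 0.005. The intensity scaling and the error model of the p-value are not given in the sources used here.

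From the intensities, log2(Cy5/Cy3) was computed for the 23376 probes with 8 values. Limma 3.58.1 in R 4.3.3 (lmFit, eBayes, 2-sided) compared 4 tMCAO with 4 sham arrays, probe by probe, with Benjamini-Hochberg adjustment over all of them and 0.05 as the limit of the adjusted p for a call. Sham was set against the pool in that fit too. The labels name no batch; their animal numbers are highest for replicate 4 of both groups, and what the numbers stand for is not given. The labels call the arrays biological replicates, and their number limits the precision. The file's 11012 symbols were updated through RefSeq (9304 matched as given and 1454 by synonym), and 19 had turned into dates. Named genes are all members, up to 4 called genes with the largest difference and non-overlapping groups per list, up to 2 against its majority, and the 3 most like probes; others are said to be chosen later. The result of 1 gene that this rule names is not reported here. On simulated data with 200 of 23376 probes changed, the fit recovered 70% of the changes by 1.5-fold, 78% of those by 2-fold and 98% of those by 4-fold or 8-fold, with 7.03% of calls on unchanged probes. The noise of both groups was drawn from the SD of each probe over the sham arrays. The wider spread of the tMCAO arrays was not simulated, so these rates may not hold for them. Alternatives were quantile normalization, median centring, Cy5 alone, the pool alone as the control (tMCAO ratios against 0), the series values, dim probes left out, rounding, variance options, averaged or brightest probes, a replicate block and leaving out each array.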

Additional observations from a re-analysis of the deposited data

Results flagged for a closer look

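Of 72 groups of 4 arrays examined for member and named pathway probes, 2 held an array far from the other 3, where chance alone flags about 1 in 20. P4hb on tMCAO replicate 4 had a log2 ratio of 0.65, against 1.64 to 1.83 on the other tMCAO arrays, a gap of 0.843 of the range of that group. Sil1 on tMCAO replicate 1 had a log2 ratio of -0.54, against -0.25 to -0.20 on the other tMCAO arrays, a gap of 0.874 of the range. No member probe was among them.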

How the results depend on the processing

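Under 22 alternatives, Dnajb9 stayed called in all, and Trib3, Ddit3 and Hspa5 in all but quantile normalization, which left 1 member called (Dnajb9, 0.37, adjusted p = 0.035). There, Trib3 was 0.71 (adjusted p = 0.159), Ddit3 0.35 (0.07 as adjusted p), Hspa5 0.29 (adjusted p = 0.225) and Atf4 0.04 (adjusted p = 0.821), 1 member differed between sham and the pool, and the pathway had 18 genes higher and 5 lower. Quantile normalization forces the same spread on all arrays. Atf4 was lost in 11, including the replicate block (adjusted p = 0.055), an intensity trend (0.0539 as adjusted p) and 7 of 8 left-out arrays. Xbp1 (0.27, adjusted p = 0.0186) and Herpud1 (0.35, adjusted p = 0.0172) were called with the pool alone as control. An adjusted p under 0.01 left 25 pathway genes higher and 0 lower. The pathway genes lower were 19 with the pool alone, 18 with array weights, 3 with averaged probes, 2 with the brightest probe, and 4 to 16 with an array left out. Signs turned for Asns without tMCAO replicate 4 (-0.0136, and up to 0.4318 with another array left out), and under rounding for Ppp1r15a (0.6286), Hyou1 U41853 (1.1639), Jdp2 (0.1031) and Hyou1 701350457H1 (-0.318). The last also turned with Cy5 alone (-0.1638), the pool alone (-0.1214), averaged probes (-0.2079), without tMCAO replicate 4 (-0.0495) and without sham replicate 4 (-0.0005), in a range up to 0.1396 over the left-out arrays; the cause was not tested. Over all probes, 3380 rose and 3540 fell, against 1892 and 1691 with quantile normalization, 5206 and 5993 with array weights, 5152 and 6034 with the pool alone, 1391 and 1018 at an adjusted p under 0.01, and 4920 and 5472 without tMCAO replicate 4. Deviations of same-numbered arrays from their group means correlated at 0.0297, -0.0351, 0.0137 and -0.0614. With 4 arrays per group, these values cannot exclude that replicate numbers pair the animals. The replicate block gave 4 members higher, 35 and 7 pathway genes higher and lower, and 2543 and 2393 probes. Rounding and brightness limit the dim and the brightest probes.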
